A study of Mus musculus with 4 samples.

Results

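This section describes 45 genes for enzymes of fatty acid oxidation, the pyruvate dehydrogenase complex and the tricarboxylic acid cycle, out of 8106 named genes on a printed mouse cDNA array. They are the genes with 1 platform symbol that match a fixed list of name stems, from Acsl and Cpt through Acad and Hadh to Idh and Mdh. They were represented by 89 of the 17664 printed features, 18 of them by 1 clone and 27 by 2 or more, and clones of 1 gene were averaged. The samples were ventricles with septum from 6 male mice of a wild-type strain labelled 1-renin, backcross N5–6(129Ola/C57BL/6J), aged 12 to 13 weeks. High-salt mice (3 animals) drank water with 1% NaCl for 5 weeks and low-salt mice (3 animals) drank tap water. Both groups had lost 1 kidney, received deoxycorticosterone acetate (DOCA), a mineralocorticoid, for 5 weeks from 7 to 8 weeks of age, and ate food with 0.5 mg Na per g. No mice without DOCA or with both kidneys were analysed here. Heart weight averaged 126 ± 5.69 mg in the high-salt mice, against 108 ± 1.0 mg in the low-salt mice (SD over 3 mice a group).

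A working heart takes most of its ATP from mitochondria. Fatty acids are activated to acyl-CoA, carried across the mitochondrial membranes on carnitine and shortened by beta-oxidation, a repeated round of dehydrogenation, hydration, a second dehydrogenation and thiolysis that releases acetyl-CoA. Glucose carbon enters through pyruvate dehydrogenase, and acetyl-CoA from either source is burnt in the tricarboxylic acid cycle. Reduced fatty acid oxidation is a known feature of the overloaded, enlarged heart.

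Each of the 4 arrays set 1 high-salt heart against 1 low-salt heart in 2 dyes. Array 1 held pair 1 and array 2 held pair 2, both with Cy3 on the high-salt RNA. Array 3 held pair 3 and array 4 held the mice of pair 2 again, both with Cy5 on the high-salt RNA. Values are log ratios, taken as log2, and are read as high over low salt, so a negative value means lower in high salt. That direction is likely from the wording of the array titles but is not settled. The reason is that arrays of opposite dye orientation correlated below 0, at r from -0.61 to -0.34 over 17207 features. Without features taken as controls (16471 clones), array 3 had r of -0.34 with array 1 and -0.37 with array 2. Array 4 was nearer 0, at -0.081 with array 1 and -0.073 with array 2, which held the same mice. The collagen genes Col3a1 and Col1a2 kept 1 sign as deposited. They stood at 1.06, 1.26, 0.84 and 1.18 and at 1.13, 1.18, 0.80 and 1.13 on arrays 1 to 4. Col1a1 was split by dye, at -0.0205, -0.66, 0.23 and 0.58. Of all named genes, 7.75% were below and 7.01% above 0 on all 4 arrays as deposited. With arrays 1 and 2 turned in sign these shares were 18.7% and 12.7%. The direction was not tested. The main counts and medians of gene groups are therefore also given with arrays 1 and 2 turned in sign. Gene means are over 3 pairs, with arrays 2 and 4 averaged first. The columns hold ratios and no levels, so the tissue could not be checked against its markers, and fewer cells of a type cannot be told apart from less RNA per cell.

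Most of the enzymes lay below 0, and none passed the test over all genes. The mean log2 ratio was below 0 for 38 of the 45 enzymes, against 50.2% of all named genes, and 16 of the 45 were below 0 on all 4 arrays, against 7.75%. No enzyme was above 0 on all 4 arrays, where 7.01% of all genes were. The median over the enzymes was -0.19, -0.22, -0.087 and -0.092 on arrays 1 to 4, while that of all named genes lay between -0.016 and 0.011. Limma with Benjamini-Hochberg adjustment called 0 of the 45 enzymes and 0 of 8106 genes (0%) at 0.05. At an unadjusted p under 0.05, 8 enzymes were lower, against 2.63% of all genes, and 0 were higher, against 2.81%. The 8 were Hadh, Ech1, Echs1, Mdh2, Cpt2, Fh1, Idh2 and Acadm. Echs1, Cpt2 and Idh2 rest on 1 clone each, and 1 of the 2 Fh1 clones was above 0 on array 3, at 0.019. The count of 8 depends on single pairs: 13 enzymes were lower without pair 3, 4 without pair 1, 5 without array 2 and 2 without pair 2. The count over all genes, in either direction, moved too, to 851, 327, 391 and 145 in that order, from 441. Of single clones, 69 of 89 had a mean below 0 and 25 were below 0 on all 4 arrays, against 6.76% of 16471 clones. In a test per clone 14 of the 89 were lower at an unadjusted limma p under 0.05, against 2.39% of all clones, and 0 passed the adjusted threshold.

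**Figure D1:**
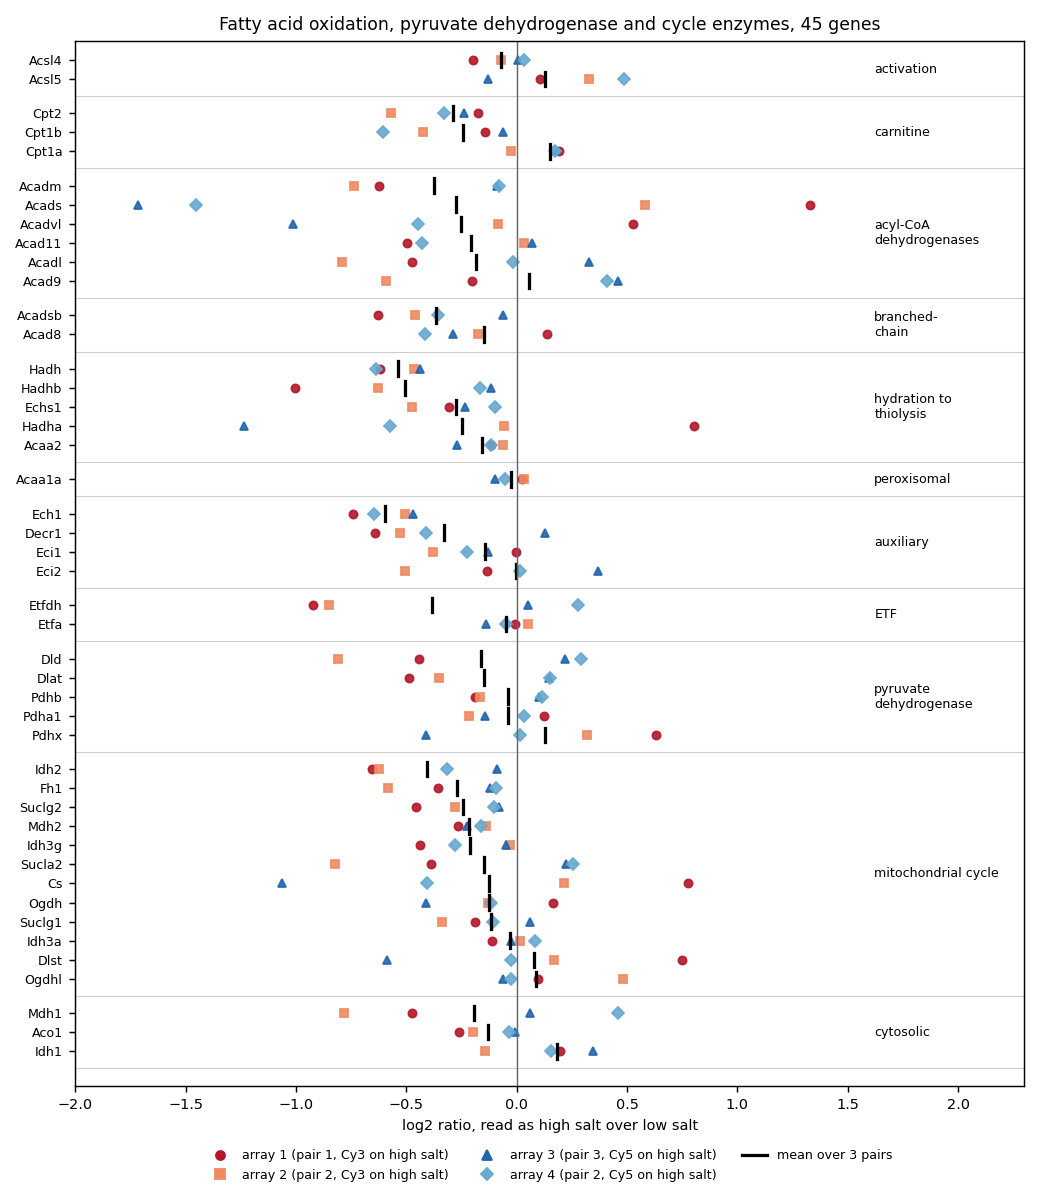
Log2 ratio of each of the 45 enzymes (rows, grouped by step), read as high over low salt, on the 4 arrays (coloured symbols), with the mean over 3 pairs as a black bar. Hadh and Ech1 lie left of 0 on every array with the 4 symbols close together, while Acads and Cs lie right of 0 on arrays 1 and 2 and left of it on arrays 3 and 4.

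With arrays 1 and 2 turned the picture was different. The median over the 45 enzymes was then 0.084, with 16 below 0 against 53.3% of all genes. Below 0 on all 4 arrays were 5 enzymes, against 18.7% of all genes, and above 0 on all 4 were 9, against 12.7%. At an unadjusted limma p under 0.05, 7 enzymes were then lower, against 13.8% of all genes, and 9 higher, against 6.97%, and 0 passed the adjusted threshold. Put otherwise, the sign of 14 of the 45 enzymes (31.1%) followed the dye orientation on all 4 arrays as deposited, close to the 31.3% of all genes. The direction of every value given here rests on the reading of the deposited ratios.

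The steps had different medians. The median of the gene means was -0.25 for the 15 genes of mitochondrial beta-oxidation, -0.14 for the 12 genes of the mitochondrial cycle, -0.071 for the 5 genes of activation and carnitine transfer and -0.037 for the 5 genes of pyruvate dehydrogenase. Beta-oxidation was below 0 on each array, at medians of -0.31, -0.48, -0.13 and -0.22 on arrays 1 to 4. So was the cycle, at -0.23, -0.13, -0.084 and -0.10. The pyruvate dehydrogenase medians were -0.19 and -0.22 on arrays 1 and 2 but 0.10 and 0.11 on arrays 3 and 4, so the sign differed between dye orientations. Its median of gene means was 0.0090 without array 2, -0.022 without pair 1, -0.084 without array 4 and -0.11 without pair 3. That of activation and carnitine transfer was -0.0076 without pair 1 and -0.11 without pair 3. Over pairs the SD of the median was 0.104 for beta-oxidation, 0.072 for the cycle and 0.147 for pyruvate dehydrogenase (n = 3 pairs). Whether the steps differ from one another was not tested. With arrays 1 and 2 turned the medians were 0.087, 0.064, 0.019 and 0.14 in the order given above.

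**Figure D2:**
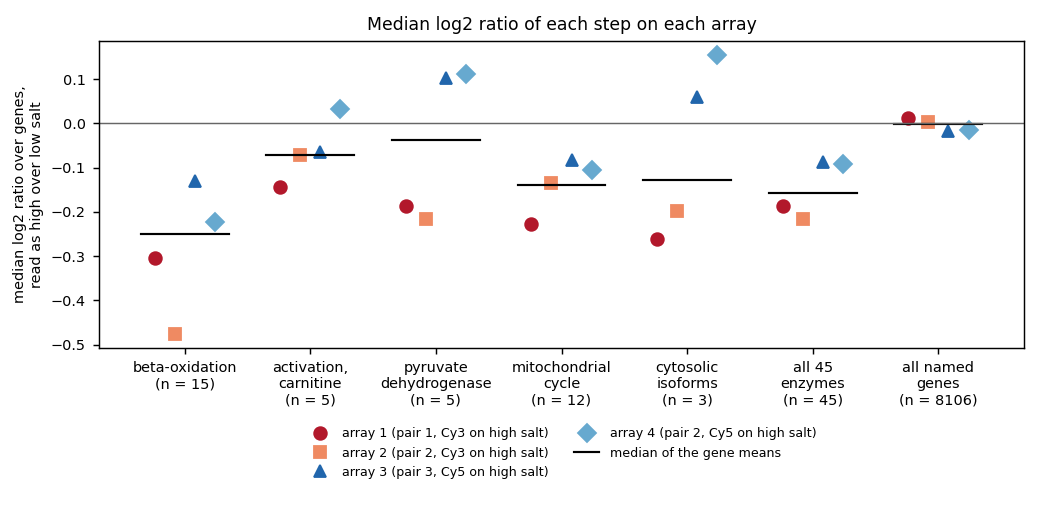
Median log2 ratio over the genes of each step (vertical axis, read as high over low salt) on each of the 4 arrays, with the median of the gene means as a line. Beta-oxidation and the mitochondrial cycle lie below 0 on all 4 arrays, pyruvate dehydrogenase only on arrays 1 and 2, and the medians of all named genes lie near 0.

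The promoters of 5 fatty acid oxidation genes are shown before their values, as a description only. Hadh and Ech1 had the lowest means, Acadm is a textbook target of nuclear receptors of fatty acid metabolism, and Hadha and Hadhb are subunits of 1 protein that share 1 stretch of promoter. The sequences are from RefSeq, build GRCm38.p6, and run 5′ to 3′. The first 3 are the 250 bases before the start of the gene, at chr3:153944644-153944893 on the minus strand for Acadm, chr7:28825088-28825337 on the plus strand for Ech1 and chr3:131272102-131272351 on the minus strand for Hadh. The last is the plus strand of chr5:30155003-30155230, 228 bases that lie before the starts of both Hadha (minus strand) and Hadhb (plus strand). Capitals mark the nuclear receptor core AAGGTCA, or the shorter half-site AGGTCA that it contains, on either strand.
Acadm: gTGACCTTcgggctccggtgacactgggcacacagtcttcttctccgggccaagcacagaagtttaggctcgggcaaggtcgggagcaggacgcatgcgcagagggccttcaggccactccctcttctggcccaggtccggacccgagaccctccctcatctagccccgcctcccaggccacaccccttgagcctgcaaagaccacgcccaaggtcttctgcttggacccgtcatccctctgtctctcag
Ech1: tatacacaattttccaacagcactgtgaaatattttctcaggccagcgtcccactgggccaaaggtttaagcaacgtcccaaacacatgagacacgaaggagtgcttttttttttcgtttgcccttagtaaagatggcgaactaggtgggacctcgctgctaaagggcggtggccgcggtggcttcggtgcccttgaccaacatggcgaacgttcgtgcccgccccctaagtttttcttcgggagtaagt
Hadh: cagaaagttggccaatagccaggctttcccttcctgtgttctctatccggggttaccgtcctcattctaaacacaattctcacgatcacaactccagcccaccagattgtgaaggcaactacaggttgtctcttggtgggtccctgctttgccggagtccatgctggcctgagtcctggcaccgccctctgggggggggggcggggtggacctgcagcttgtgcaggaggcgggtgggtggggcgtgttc
Hadha/Hadhb: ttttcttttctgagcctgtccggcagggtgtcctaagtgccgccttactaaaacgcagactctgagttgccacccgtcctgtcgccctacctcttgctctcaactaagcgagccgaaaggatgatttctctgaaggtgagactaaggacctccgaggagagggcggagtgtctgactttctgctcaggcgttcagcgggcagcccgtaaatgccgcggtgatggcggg
The only match in these windows is a reverse-strand AAGGTCA at the far end of the Acadm window. Of the 45 enzymes, 40 had a window in the RefSeq promoter table, with 46 windows in all. AAGGTCA was found in 1 of these 46 windows (2.17%), against 4.08% of all 32851 windows of 250 bases. AGGTCA was found in 7 (15.2%, for Acadm, Acadvl, Cpt1a, Echs1, Fh1, Ogdhl and Sucla2), against 14% of all windows. Both shares were near or below those of all windows. Counted by gene and not by window, 7 of the 40 enzymes held AGGTCA, among them 3 of the 14 that were below 0 on all arrays. The share of all genes was not worked out.

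Fatty acid entry was mixed. Cpt2, the carnitine palmitoyltransferase of the inner membrane, stood at log2 ratios of -0.18, -0.57, -0.24 and -0.33 on arrays 1 to 4, with a mean of -0.29 ± 0.14 (SD, n = 3 pairs; limma adjusted p = 0.863). Cpt1b, the muscle form of the rate-setting outer-membrane enzyme, stood at -0.14, -0.42, -0.064 and -0.61 and averaged -0.24 ± 0.24. Both were below 0 on every array, and in both pair 2 had the lowest value. Cpt1a, the liver form, went the other way, at 0.19, -0.025, 0.18 and 0.18, with a mean of 0.15 ± 0.064. Array 2 alone was not above 0 for Cpt1a, and there its 2 clones parted, at 0.21 and -0.26. The acyl-CoA synthetases had means of -0.071 for Acsl4 and 0.13 for Acsl5, with both signs among their arrays.

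The first dehydrogenation of beta-oxidation is made by acyl-CoA dehydrogenases of different chain length. Acadm, the medium-chain enzyme, stood at log2 ratios of -0.62, -0.74, -0.088 and -0.081 on arrays 1 to 4 and averaged -0.37 ± 0.27 (SD, n = 3 pairs; limma adjusted p = 0.903). It was the only one of the 6 below 0 on all arrays, and its values were much farther from 0 with Cy3 on high salt than with Cy5, where each of its 2 clones was above 0 on 1 array. Acadl, the long-chain enzyme, averaged -0.18 ± 0.44 and was above 0 only on array 3, at 0.33. Acads, the short-chain enzyme, had the widest swing of the 45 genes, at 1.33, 0.58, -1.72 and -1.45, and its mean of -0.27 ± 1.53 came from large values of both signs. Both of its clones swung in this way. Acadvl, the very-long-chain enzyme, averaged -0.25 ± 0.77, Acad11 averaged -0.21 ± 0.28 and Acad9, also an assembly factor of respiratory complex I, 0.055 ± 0.36. Acad9 was split by dye, at -0.20 and -0.59 on arrays 1 and 2 and 0.46 and 0.41 on arrays 3 and 4. The relatives that act on branched-chain amino acids, named with the same stem, were also below 0 in the mean. Acadsb stood at -0.63, -0.46, -0.060 and -0.36 (mean -0.37 ± 0.29), and Acad8 averaged -0.15 ± 0.25 with array 1 above 0.

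Of the 5 genes for hydration, the second dehydrogenation and thiolysis, 5 had a mean below 0, against 50.2% of all genes, and 4 were below 0 on all arrays, against 7.75%. After turning arrays 1 and 2, 2 of the 5 had a mean below 0, against 53.3% of all genes. The median log2 ratio was then 0.032 in place of -0.28. Hadh, the dehydrogenase of medium and short hydroxyacyl chains, stood at log2 ratios of -0.62, -0.47, -0.44 and -0.64 on arrays 1 to 4 (limma adjusted p = 0.64). The 4 values, each an average of 2 clones, were close to each other in both dye orientations, with a mean of -0.54 ± 0.092. The 2 clones were each more scattered, at means of -0.57 ± 0.18 and -0.50 ± 0.34. On arrays 1 to 4 the first stood at -0.54, -0.13, -0.77 and -0.70 and the second at -0.70, -0.81, -0.11 and -0.58. The first was lower with Cy5 on high salt and the second with Cy3, and averaging evened this out. Echs1, the short-chain enoyl-CoA hydratase, stood at -0.31, -0.48, -0.23 and -0.097, with a mean of -0.28 ± 0.037 (adjusted p = 0.852). Its 3 pairs were nearly equal because arrays 2 and 4 of pair 2, which differed by 0.38, averaged to the level of the others. Acaa2, the mitochondrial thiolase, stood at -0.12, -0.061, -0.27 and -0.12, a mean of -0.16 ± 0.097 made of 1 clone at -0.41 and 1 at 0.092. The 2 subunits of the trifunctional protein, which carries out the last 3 reactions on long chains, did not match on single arrays. Hadhb, the thiolase subunit, stood at -1.01, -0.63, -0.11 and -0.16 (mean -0.51 ± 0.46), and Hadha, the hydratase and dehydrogenase subunit, at 0.80, -0.056, -1.24 and -0.57 (mean -0.25 ± 1.02). With Cy3 on high salt Hadhb was far below Hadha, and with Cy5 it was above Hadha. Each rests on 1 clone, and the genes share the promoter stretch printed above.

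Auxiliary enzymes, which prepare unsaturated fatty acids for beta-oxidation, included the lowest mean of the 45. Ech1, which shifts paired double bonds, stood at log2 ratios of -0.74, -0.51, -0.47 and -0.65 on arrays 1 to 4 (limma adjusted p = 0.64). Its 2 clones averaged -0.62 and -0.58, and all 8 clone values were below 0. Decr1, the dienoyl-CoA reductase, stood at -0.64, -0.53, 0.13 and -0.41 (mean -0.33 ± 0.41), with array 3 on the other side of 0. Eci1, an enoyl-CoA isomerase, stood at -0.0037, -0.38, -0.13 and -0.22 (mean -0.14 ± 0.15). For Eci1 too the clones parted, 1 at -0.33 and 1 at 0.039. Eci2, an isomerase found in mitochondria and peroxisomes, averaged -0.0038 ± 0.33 and had no direction. The thiolase Acaa1a, which acts in peroxisomes, was near 0 at -0.027 ± 0.064. Electrons from these dehydrogenases pass to the electron transfer flavoprotein. Its subunit Etfa averaged -0.049 ± 0.077, and Etfdh, which hands the electrons to ubiquinone, stood at -0.92, -0.85, 0.053 and 0.28 (mean -0.39 ± 0.50), low only where Cy3 was on high salt.

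No pyruvate dehydrogenase gene kept 1 sign on all arrays, while only 7.75% of all genes were below 0 and 7.01% above 0 on all 4. Dld, the dihydrolipoyl dehydrogenase that this complex shares with the oxoglutarate complex, had the lowest mean of the 5, at -0.44, -0.81, 0.22 and 0.29 on arrays 1 to 4 (mean log2 ratio -0.16 ± 0.34, n = 3 pairs). Dlat, the acetyltransferase core, averaged -0.15 ± 0.32, and Pdhb and Pdha1, the subunits of the decarboxylase, -0.037 ± 0.14 each. Pdhx, which binds Dld to the core, had the highest mean, at 0.63, 0.32, -0.41 and 0.013 (mean 0.13 ± 0.52). In Dld, Dlat and Pdhb both Cy3 arrays were below 0 and both Cy5 arrays above it. The 4 clones of Pdha1 ranged from -0.23 to 0.26.

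In the mitochondrial cycle 10 of 12 genes had a mean below 0, against 50.2% of all genes, and 5 were below 0 on all arrays, against 7.75%. Turning arrays 1 and 2 left 4 of the 12 with a mean below 0, against 53.3% of all genes. Idh2, the NADP-dependent isocitrate dehydrogenase of mitochondria, had the lowest mean, at log2 ratios of -0.66, -0.62, -0.087 and -0.32 on arrays 1 to 4 (mean -0.40 ± 0.29, n = 3 pairs; limma adjusted p = 0.887). Fh1, fumarase, stood at -0.36, -0.58, -0.12 and -0.092. Mdh2, the malate dehydrogenase of mitochondria, was the most even, at -0.27, -0.14, -0.22 and -0.16, and both its clones were below 0 on every array. Each of these 2 clones was more scattered than their average (SD 0.060), at means of -0.17 ± 0.12 and -0.26 ± 0.15. On arrays 1 to 4 the first stood at -0.11, -0.020, -0.31 and -0.14 and the second at -0.42, -0.25, -0.14 and -0.18. Fh1 and Mdh2 had an adjusted limma p of 0.863 each. Suclg2, the GTP-forming succinyl-CoA ligase subunit, stood at -0.46, -0.28, -0.080 and -0.10 (mean -0.24 ± 0.19), although 1 of its 3 clones averaged 0.020. Idh3g, a regulatory subunit of the NAD-dependent isocitrate dehydrogenase, stood at -0.44, -0.030, -0.049 and -0.28 (mean -0.21 ± 0.20), with arrays 2 and 3 close to 0. Its catalytic partner Idh3a averaged -0.030 ± 0.080 over clones from -0.18 to 0.17.

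The other cycle genes showed no common sign. Sucla2, the ATP-forming ligase subunit, averaged -0.15 ± 0.33 and was split by dye, at -0.39 and -0.83 on arrays 1 and 2 and 0.22 and 0.25 on arrays 3 and 4. Suclg1, the shared ligase subunit, averaged -0.12 ± 0.15, Ogdh, the first enzyme of the oxoglutarate complex, -0.12 ± 0.29 and Cs, citrate synthase, which opens the cycle, -0.13 ± 0.92. Dlst, the core of the oxoglutarate complex, averaged 0.078 ± 0.67. Ogdhl, an Ogdh-like enzyme, had the highest mean of the step, at 0.098, 0.48, -0.061 and -0.028 (mean 0.088 ± 0.14). Among cytosolic counterparts Mdh1 stood at -0.48, -0.78, 0.060 and 0.46 (mean -0.19 ± 0.27), split by dye like Sucla2. Aco1, the cytosolic aconitase and iron-regulatory protein, stood at -0.26, -0.20, -0.0070 and -0.036 (mean -0.13 ± 0.13). Idh1, the cytosolic NADP-dependent isocitrate dehydrogenase, stood at 0.20, -0.14, 0.34 and 0.16 (mean 0.18 ± 0.17), the highest mean of the 45 in the deposited reading. With arrays 1 and 2 turned Idh1 averaged 0.099 and its mitochondrial relative Idh2 0.24, so the order of these relatives depends on the reading.

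**Figure D3:**
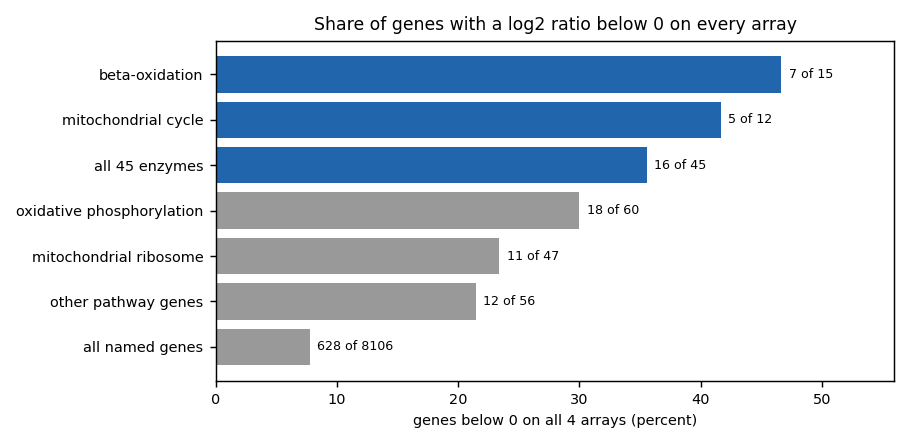
Share of genes (horizontal axis, percent) whose log2 ratio, read as high over low salt, was below 0 on all 4 arrays, with counts beside the bars. Beta-oxidation reached 7 of 15 and all 45 enzymes 16 of 45, against 628 of 8106 named genes.

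The mice of pair 2 were hybridised once in each dye orientation, so the difference between arrays 2 and 4 holds no difference between animals. Across the 45 enzymes the median size of that difference was 0.25 on the log2 scale, against 0.195 for all named genes, and for 6 enzymes it was over 1. These were Acads (2.04) and, with the lower value on array 2, Mdh1 (-1.24), Etfdh (-1.13), Dld (-1.10), Sucla2 (-1.08) and Acad9, just past 1. On both arrays 23 enzymes were below 0, on both 3 were above, and 19 had opposite signs, while 24.1% of all genes were below 0 on both. For the counts above 0, of opposite sign and over 1, the share of all genes was not worked out. Divided by 2, the difference was larger in size than the mean log2 ratio for 42.2% of the enzymes, against 61.8% of all named genes. Across enzymes, which are not independent, this gap between the arrays of pair 2 and the gap between pairs 1 and 3 had a correlation of r = 0.78 (n = 45). Those 2 pairs were also of opposite dye orientation, and they share no mouse with pair 2.

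**Figure D4:**
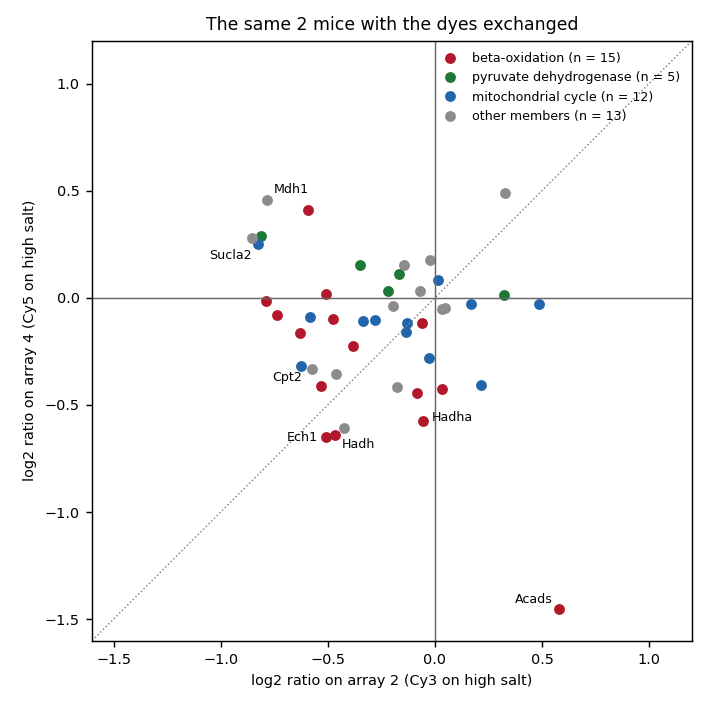
Log2 ratio on array 4 (vertical axis) against array 2 (horizontal axis) for the 45 enzymes, with colours for the steps and the line of equal values dotted. Ech1 and Hadh lie near the dotted line in the lower left, 19 enzymes lie in the upper left or lower right, and Acads lies farthest from the line.

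Clones of 1 gene could differ widely. Of the 3 Cs clones, 1 stood at -0.50, -0.39, -0.098 and -0.19 on arrays 1 to 4, and another at 1.98, 0.97, -2.08 and -0.69. Of the 4 Dlst clones, 1 stood at -0.31, -0.47, -0.17 and -0.13, and another at 1.70, 1.03, -1.31 and -0.11. Of the 2 Acadvl clones, 1 stood at -0.17, -0.74, -0.44 and -0.16 and the other at 1.23, 0.57, -1.59 and -0.73. In each of these genes 1 clone was below 0 on all 4 arrays, with mean log2 ratios of -0.30 ± 0.20 for Cs, -0.26 ± 0.076 for Dlst and -0.35 ± 0.16 for Acadvl (SD, n = 3 pairs), while at least 1 other clone had opposite signs in the 2 dye orientations. These clones were singled out after their values were seen. Keeping only clones whose values on arrays 2 and 4 differed by at most 0.5, a choice also made after seeing the data, left 57 of the 89 clones and 36 of the 45 enzymes. Of these, 31 had a mean below 0, against 52.4% of all genes kept, and 14 were below 0 on all arrays, against 9.28%. That choice favours clones with 1 sign in the deposited reading, for all genes alike.

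**Figure D5:**
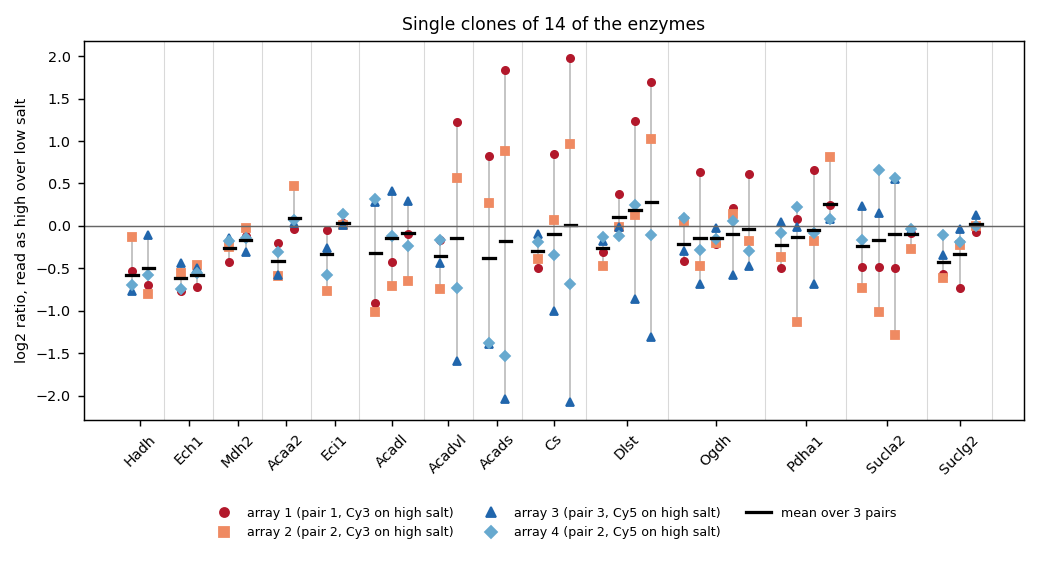
Log2 ratio (vertical axis, read as high over low salt) of every clone of 14 of the enzymes on the 4 arrays (coloured symbols), with each clone's mean over 3 pairs as a black bar. The clones of Hadh, Ech1 and Mdh2 lie below 0 on every array, while single clones of Acads, Acadvl, Cs and Dlst spread from above 1 to below -1.

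Other genes of the pathways, 56 in all, had a median closer to 0 than the 45 enzymes. Their median log2 ratio was -0.019, and 0.015 with arrays 1 and 2 turned. A mean below 0 was found for 32, against 50.2% of all genes, while 12 were below 0 on all 4 arrays, against 7.75%, and 3 above, against 7.01%. At an unadjusted limma p under 0.05, 3 were lower, against 2.63%, and 2 higher, against 2.81%, and 0 passed the adjusted threshold. Turning arrays 1 and 2 left 25 of the 56 with a mean below 0, against 53.3% of all genes. Succinate dehydrogenase, the cycle enzyme that is also respiratory complex II, had 3 of 5 listed genes below 0 on all arrays. These were Sdha, Sdhb and Sdhc, while the subunit Sdhd averaged 0.062 and the assembly factor Sdhaf2 0.034. The catalytic subunit Sdha stood at -0.48, -0.75, -0.25 and -0.068 on arrays 1 to 4 and the iron-sulfur subunit Sdhb at -0.57, -0.50, -0.059 and -0.087. The mean of Sdha was -0.38 over 3 clones, and -0.18 with only clones whose arrays 2 and 4 were within 0.5. Mlycd, which removes the Cpt1 inhibitor malonyl-CoA, stood at -0.16, -0.58, -0.26 and -0.26 (mean -0.28 ± 0.13, n = 3 pairs). Acyl-CoA thioesterases stood on opposite sides, Acot7 at a mean of -0.29 ± 0.17 and Acot9, a mitochondrial one, at 0.50 ± 0.26. All 4 arrays were on 1 side of 0 for each of Mlycd, Acot7 and Acot9. In fatty acid uptake Cd36, the fatty acid translocase, averaged -0.20 ± 0.17 and was below 0 on every array, and Fabp3, the heart fatty acid-binding protein, averaged -0.055 ± 0.12. Pdk4, the kinase that shuts off pyruvate dehydrogenase, stood at 0.55, -0.065, 1.25 and 0.50, with a mean of 0.67 ± 0.53 (adjusted p = 0.905).

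Of 15 regulators of these genes 7 had a mean below 0 in the deposited reading, against 50.2% of all genes. With arrays 1 and 2 turned 11 did, against 53.3%, and the median log2 ratio was -0.22 in place of 0.011. Ppara, the nuclear receptor that induces fatty acid oxidation genes, stood at log2 ratios of 0.89, 0.80, -0.23 and 0.58 on arrays 1 to 4 (mean 0.45 ± 0.60, n = 3 pairs). Ppargc1a, a coactivator of mitochondrial biogenesis, averaged -0.043 ± 0.44. Esrra, a nuclear receptor of oxidative metabolism, stood at 0.90, 1.09, -1.14 and -1.10, split by dye, with a mean of -0.084 ± 1.02. Each of these 3 had 1 clone.

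Other mitochondrial gene groups also lay below 0. Of 60 oxidative phosphorylation subunits 18 were below 0 on all arrays, against 7.75% of all genes, with a median log2 ratio of -0.12, and of 47 mitochondrial ribosomal proteins 11 were, with a median of -0.049. With arrays 1 and 2 turned these medians were -0.013 and -0.060, against 0.084 for the 45 enzymes. No difference between these groups and the enzymes was tested. Of the markers of other cell types, 11 of 12 fibroblast markers had a mean above 0, against 4040 of all 8106 named genes. Their medians were 0.34, 0.29, 0.34 and 0.38 on arrays 1 to 4, and 6 were above 0 on all arrays, against 7.01% of all genes. In the turned reading 5 of the 12 had a mean above 0, against 3784 of 8106 genes, and the median was -0.046. Of the cardiomyocyte markers only 3 were measured, Ryr2, Atp2a2 and Ttn, with a median of 0.054 and 1 below 0 on all arrays. Medians were 0.14 for 8 endothelial, 0.18 for 3 smooth muscle and pericyte, 0.045 for 4 leukocyte, 0.024 for 8 adipocyte and -0.019 for 2 blood markers. Turned, the medians were 0.13 for the cardiomyocyte, -0.057 for the endothelial, -0.0092 for the smooth muscle and pericyte, 0.078 for the leukocyte, 0.011 for the adipocyte and 0.0070 for the blood markers. The part of cell composition in the values of the enzymes was not tested.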

How the data were processed

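RNA of heart ventricles from 6 mice was hybridised to 4 two-colour cDNA arrays, with 1 high-salt and 1 low-salt mouse each, per the labels' protocols. The authors deposited 1 log ratio per feature, used here as a log2 ratio. Not given in the sources used here are its base, normalization, background correction and direction. Of 17664 features, 17207 had a value on all 4 arrays. Intensities were not used here, so the precision of single spots is unknown, and the number of pairs limits that of the tests.

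Features were named from the platform annotation: 12563 had 1 symbol, 412 several and the rest none. All 45 enzymes matched RefSeq genes of GRCm38.p6 under the same symbol. For the clone test, 736 features at 23 positions that had no gene in any of 32 print blocks, in table order, were taken as controls and left out, leaving 16471 clones. Clones were averaged per symbol and arrays 2 and 4 (same mice) per pair. Limma 3.58.1 (R 4.3.3; intercept, eBayes, two-sided) was fitted to the 3 pairs, with p-values adjusted by Benjamini-Hochberg over 8106 genes. The fit was also run on simulated data of 8106 genes. It called 77 of 100 genes lowered by 1 on the log2 scale and 16 of 100 lowered by 0.5. Of unchanged genes there, 5.05% had an unadjusted limma p under 0.05. Whether these shares hold for the measured arrays, with their split by dye orientation, was not tested. In the measured data 0 of 8106 genes passed. The fibroblast markers Col1a2 and Col3a1 averaged 1.03 and 1.04, with an adjusted limma p of 0.64 each.

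The enzymes, the other gene lists and the tests were chosen with earlier results of these data known. Named were enzymes with 1 sign on all arrays, the highest and lowest of each step with 3 or more genes, other pathway genes at an unadjusted p under 0.05 and 8 fixed ones. The remaining enzymes are named for completeness.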

Additional observations from a re-analysis of the deposited data

Results flagged for a closer look

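The log2 ratio of Cpt1a was singled out because array 2 stood apart from the other 3 arrays. The gap from array 2 to the nearest array was 0.927 of the whole range, above Dixon's critical value for 4 arrays, and the values were 0.19, -0.025, 0.18 and 0.18 on arrays 1 to 4. Array 4 held the same mice as array 2. Of 40 values checked in this way 1 was singled out, and chance singles out about 5 in 100.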

How the results depend on the processing

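No alternative brought any gene, enzyme or clone past an adjusted limma p of 0.05. Turning arrays 1 and 2 gave medians of 0.084 for all enzymes, 0.087 for beta-oxidation, 0.019 for entry, 0.14 for pyruvate dehydrogenase and 0.064 for the cycle. It left 16 enzymes with a mean below 0 and 5 below 0 on all arrays, and put 1683 of all genes and 16 other pathway genes at an unadjusted p under 0.05. Dye orientation as a covariate put 1188 genes, 19 lower enzymes and 14 other pathway genes there. Leaving out 1 array in turn gave 327 to 851 genes (441 with all), 4 to 13 lower enzymes (8 with all), 3 to 12 other pathway genes (5 with all) and pyruvate dehydrogenase medians from -0.11 to 0.0090. Leaving out both arrays of pair 2 gave 145 genes, 2 lower enzymes and 2 other pathway genes. The cause of these changes was not tested.

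With arrays 1 and 2 turned, 25 of 35 named genes changed sign: Acadm 0.29, Acadsb 0.21, Aco1 0.11, Acot7 0.0080, Cd36 0.074, Cpt2 0.019, Dld 0.40, Ech1 0.068, Echs1 0.087, Eci2 0.25, Fabp3 0.052, Fh1 0.16, Hadh 0.032, Hadhb 0.37, Idh2 0.24, Idh3g 0.087, Mdh1 0.39, Mdh2 0.010, Mlycd 0.022, Ogdhl -0.14, Pdhx -0.40, Ppara -0.41, Sdha 0.19, Sdhb 0.24 and Suclg2 0.16. Scaling the arrays to 1 spread put Ppargc1a at 0.0027. Leaving out 1 array turned Acad9 (-0.15 to 0.22), Dld (-0.35 to 0.022), Eci2 (-0.19 to 0.083), Esrra (-0.57 to 0.45), Fabp3 (-0.064 to 0.011), Mdh1 (-0.40 to 0.014), Pdhx (-0.12 to 0.40) and Ppargc1a (-0.28 to 0.15), and leaving out pair 2 turned Eci2 (0.12) and Ppargc1a (9e-04). Centred print blocks, dye orientation as a covariate, the median over clones and robust eBayes turned none of the 35, and keeping clones with arrays 2 and 4 within 0.5 turned none of the 28 that had such a clone.

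Each ratio is a difference within a pair, so the fit is itself paired. The pair as a random block gave no value with 4 arrays in 3 pairs. The log base, the direction and signal over background limit what the ratios can show.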
